A study of Mus musculus with 27 samples.

Results

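FLAG-tagged ACLY peaks that lie in chromatin carrying both H3K27ac and H3K9ac were examined in hypoxia-reperfused mouse hepatocytes. ACLY, or ATP citrate lyase, cleaves citrate outside mitochondria into acetyl-CoA, the acetyl donor of histone acetyltransferases and of fatty acid and cholesterol synthesis. H3K27ac marks active promoters and enhancers, and H3K9ac lies mostly at active promoters. A member was a FLAG peak of the WT HR list that shared at least 1 base with a peak of the WT HR H3K27ac list and at least 1 base with a peak of the WT HR H3K9ac list. Of the 3666 FLAG peaks, 1489 (40.6%, 39.0 to 42.2%) were members. Another 268 carried H3K27ac alone, 343 carried H3K9ac alone, and 1566 (42.7%) carried neither mark. The members were thus chosen by presence in these 2 mark lists, and that overlap is given as a description only.

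The cells were primary hepatocytes from WT mice and from Alb-cre:Aclyf/f mice (KO), in which Cre driven by the albumin promoter deletes floxed Acly in hepatocytes. The loss of Acly was not checked here. They went into hypoxia-reperfusion (HR) or normoxia culture 24 hours after isolation, and proteins on chromatin were then mapped by CUT&RUN, in which an antibody guides a nuclease to cut out the DNA it is bound to. The peak lists used were KO HR H3K27ac and H3K9ac, WT HR FLAG, H3K27ac and H3K9ac, and WT normoxia FLAG, H3K27ac and H3K9ac, each from 1 library. There was therefore no replicate error and no test between conditions, and the bracketed 95% intervals are exact binomial (Clopper-Pearson) intervals that cover counting error only. The sources used here do not say how WT cells came to carry the FLAG tag, and no peak list from KO cells shows what the FLAG antibody cuts without it.

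The lists differed in length and in make, and each share below depends on them. The H3K27ac lists held 14418 peaks in KO HR, 8252 in WT HR and 5655 in WT normoxia, and the H3K9ac lists held 8837, 7593 and 6513 peaks in the same order. Median peak width was 3845 bp in KO HR, 7410 bp in WT HR and 10340 bp in WT normoxia for H3K27ac. Peak edges fell on a 10 bp grid in 100.0% of peaks of the WT H3K27ac lists and in 0.943% of those of the KO list, so the KO and WT lists were not made alike. The WT normoxia FLAG list held 1 peak (chr9:2999971-3038540), which overlapped 0 members and 0 WT HR FLAG peaks of any kind. It was 38570 bp wide with a maximum of 13992.9, against a highest FLAG maximum of 55.62 in WT HR. A list with this peak alone cannot show whether the members carried FLAG signal in normoxia, and that was not tested. FLAG maxima in WT HR were whole multiples of 0.2713, and the members' maxima ran from 13 to 189 of these steps with a median of 43. As a check of the hepatocyte label, 14 of 18 hepatocyte marker genes carried both marks in WT HR on the gene or within 1 kb of it, against 1 of 8 liver macrophage, 0 of 10 endothelial and stellate and 0 of 6 cholangiocyte marker genes.

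Members lay mostly at gene starts. There the FLAG signal was highest just upstream of where transcription begins, as it was in the other classes of FLAG peak. Of the 1442 members on chromosomes with known gene starts, 911 (63.2%, 60.6 to 65.7%) had their FLAG maximum within 1 kb of the start of a coding gene. Counted from the peak edges, 67.8% had a start within 1 kb. A further 138 maxima lay 1 to 5 kb from a known start. Farther away were 272 in peaks that reached a gene body and 121 in peaks that reached no coding gene. Starts were known for 17492 of 21887 coding genes, so the shares at starts can be too low. At Wee1 the maximum lay 93 bp from the edge of the gene, yet the nearest known start, of Zfp143, was 60255 bp away. The same share within 1 kb was 13.0% for FLAG peaks with H3K27ac alone, 72.5% for FLAG peaks with H3K9ac alone, 19.3% for FLAG peaks with neither mark and 51.3% for the H3K27ac maxima of doubly marked peaks without FLAG. FLAG peaks with H3K9ac, with or without H3K27ac, thus lay more often at starts than the other FLAG peaks.

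Promoter sequences are shown for members whose FLAG maximum falls inside the 300 bp window of the sequence table, from 250 bp before to 50 bp after the start (RefSeq, GRCm38.p6, strand of the gene, 5′ to 3′). Klf15, Ftl1, N4bp2 and Irs2 are among the 20 members with the largest FLAG signal, Alas1 is among the 10 with the highest maximum, and Ldha leads the glycolysis genes. Capitals mark matches, on either strand, to CCGGAAG (ETS), TGACGTCA (CRE), GCATGCGC (NRF1), CCAAT (NFY), GGGCGG (SP/KLF), CACGTG (E-box), TATAAA (core of the TATA box) and TGANTCA (AP-1).
Klf15: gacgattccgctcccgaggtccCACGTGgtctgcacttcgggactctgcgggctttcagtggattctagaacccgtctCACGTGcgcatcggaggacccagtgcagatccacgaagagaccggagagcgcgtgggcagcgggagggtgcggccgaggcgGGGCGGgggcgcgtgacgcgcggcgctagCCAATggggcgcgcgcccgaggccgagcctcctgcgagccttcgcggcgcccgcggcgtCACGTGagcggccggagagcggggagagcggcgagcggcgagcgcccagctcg
Ftl1: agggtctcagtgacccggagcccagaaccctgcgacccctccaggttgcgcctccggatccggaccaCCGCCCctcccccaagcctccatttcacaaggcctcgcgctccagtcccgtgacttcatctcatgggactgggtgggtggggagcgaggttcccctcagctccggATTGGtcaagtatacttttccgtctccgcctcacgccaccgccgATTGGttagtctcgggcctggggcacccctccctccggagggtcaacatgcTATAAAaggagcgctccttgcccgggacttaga
N4bp2: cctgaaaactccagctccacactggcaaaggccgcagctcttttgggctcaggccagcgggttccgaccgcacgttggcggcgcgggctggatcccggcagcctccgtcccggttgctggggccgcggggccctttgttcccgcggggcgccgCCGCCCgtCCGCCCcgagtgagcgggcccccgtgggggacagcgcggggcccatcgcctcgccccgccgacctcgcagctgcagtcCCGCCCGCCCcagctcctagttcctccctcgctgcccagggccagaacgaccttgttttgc
Irs2: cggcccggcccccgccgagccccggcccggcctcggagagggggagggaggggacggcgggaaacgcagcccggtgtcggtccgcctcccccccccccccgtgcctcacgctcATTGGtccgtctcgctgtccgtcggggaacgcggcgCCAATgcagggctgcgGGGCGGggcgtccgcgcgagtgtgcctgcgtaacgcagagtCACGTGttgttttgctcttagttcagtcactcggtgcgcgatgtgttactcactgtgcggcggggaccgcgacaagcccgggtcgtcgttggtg
Ldha: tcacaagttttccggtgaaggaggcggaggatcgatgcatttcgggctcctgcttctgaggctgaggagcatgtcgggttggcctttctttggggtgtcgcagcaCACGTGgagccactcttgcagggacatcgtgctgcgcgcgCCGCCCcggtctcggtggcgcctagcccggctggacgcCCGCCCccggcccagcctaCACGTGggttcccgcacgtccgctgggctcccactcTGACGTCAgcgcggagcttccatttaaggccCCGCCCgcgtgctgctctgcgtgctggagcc
Alas1: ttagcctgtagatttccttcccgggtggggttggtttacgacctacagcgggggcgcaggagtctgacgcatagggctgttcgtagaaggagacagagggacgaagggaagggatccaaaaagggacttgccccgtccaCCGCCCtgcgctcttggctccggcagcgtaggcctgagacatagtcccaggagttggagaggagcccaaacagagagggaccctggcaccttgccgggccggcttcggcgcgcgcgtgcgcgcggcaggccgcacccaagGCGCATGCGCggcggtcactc
The windows are chr6:90462326-90462625 (plus strand) for Klf15, chr7:45459837-45460136 (minus) for Ftl1, chr5:65763271-65763570 (plus) for N4bp2, chr8:11008880-11009179 (minus) for Irs2, chr7:46845554-46845853 (plus) for Ldha and chr9:106247905-106248204 (minus) for Alas1. The Klf15 window holds 3 E-boxes and 47 CpG, the Ldha window holds 2 E-boxes and 1 CRE with 30 CpG, and the Ftl1 window holds 1 TATA motif with 20 CpG. The NRF1 run in the Alas1 window matches on both strands and so counts as 2 overlapping matches, and in the N4bp2 window 2 of its 4 SP/KLF matches overlap.

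Over all windows, 1198 promoters of 1010 genes lay wholly inside members. They were compared with 3757 doubly marked promoters without FLAG, 677 inside other FLAG peaks and all 21263 in the table. Doubly marked promoters without FLAG were covered in full by both WT HR marks, and their own 300 bp window touched no FLAG peak. The acetylation peak around such a window could still hold a FLAG peak elsewhere. CCAAT stood in 46.7% (43.9 to 49.6%) of the member promoters, 31.5% (30.0 to 33.0%) of the doubly marked promoters without FLAG, 60.3% (56.5 to 64.0%) of those in other FLAG peaks and 38.2% of all. GCATGCGC stood in 9.35%, 5.54%, 7.83% and 3.52%, and TGACGTCA stood in 5.34%, 3.11%, 6.65% and 2.23%, in the same order. CACGTG stood in 14.3%, 10.2%, 11.5% and 7.84%, and GGGCGG in 71.4%, 66.8%, 68.2% and 46.2%. For CCGGAAG the shares were 23.0% (20.7 to 25.5%) in members and 20.9% (19.6 to 22.2%) in doubly marked promoters without FLAG, with intervals that overlap, 20.4% in other FLAG peaks and 11.6% in all. TGANTCA stood in 4.67%, 5.06%, 2.95% and 6.99%, and TATAAA in 5.09%, 6.57%, 6.65% and 12.6%. The median number of CpG per window was 25 in members, 23 in doubly marked promoters without FLAG, 23 in other FLAG peaks and 13 in all promoters. These are matches of letters, given as descriptions; promoters of 1 gene can overlap, and base composition moves with several of these shares.

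FLAG, H3K27ac and H3K9ac peaked at different places around a start. Among the 911 members at a start, the FLAG maximum lay at a median of -50 bp (quartiles -137 and 24), and 459 (50.4%) lay within 100 bp of it. The place of the FLAG maximum was not particular to members. Among other FLAG peaks within 1 kb of a start, the median was -44 bp with H3K27ac alone, -60 bp with H3K9ac alone and -53 bp with neither. In the overlapping peaks, the H3K27ac maximum lay at a median of 143 bp downstream (-280 to 396) and the H3K9ac maximum at 377 bp downstream (106 to 662), among those within 5 kb. Over all 911 members, the H3K27ac maximum lay within 100 bp of the start in 4.94% and the H3K9ac maximum in 2.85%. Choosing members by FLAG distance favours FLAG in that comparison, so each list was also taken by its own maxima: 31.8% of all members had a FLAG maximum within 100 bp of a start, against 5.89% of the H3K27ac peaks and 4.36% of the H3K9ac peaks that held a member. No IgG control sample (3 in the series) was analysed here, so how much signal a control antibody gives at starts was not tested.

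**Figure D1:**
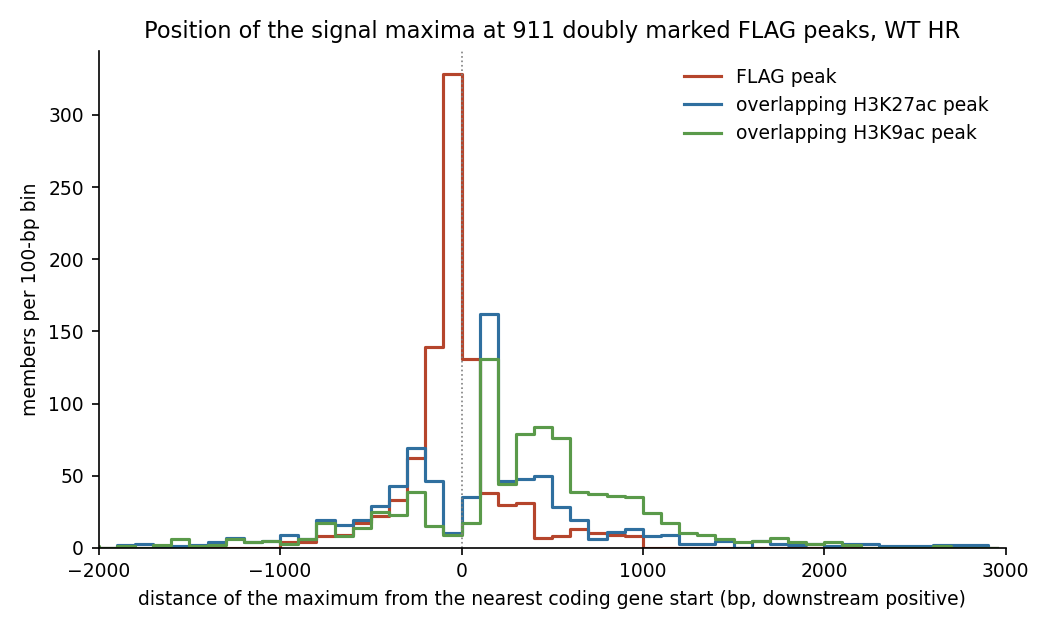
Number of members per 100 bp bin (vertical axis) by distance in bp of the signal maximum from the nearest coding gene start (horizontal axis, downstream positive, not all distances shown), for the 911 members with a FLAG maximum within 1 kb of a start. The FLAG line peaks just upstream of the start, at a median of -50 bp, whereas the H3K27ac and H3K9ac lines dip there and have medians of 143 and 377 bp.

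By total FLAG signal, the members ranked higher on median than each other class of FLAG peak. Their median rank by total signal was 1536 of 3666 (quartiles 715 and 2480), against 1928 for FLAG peaks with H3K27ac alone, 1836 with H3K9ac alone and 2099 with neither. By maximum signal the order was different, with a median rank of 1639 for members, 1758 with H3K27ac alone, 1443 with H3K9ac alone and 2194 with neither. With the FLAG list cut into 4 equal groups by total signal, members made up 51.7% of the highest group, then 43.6%, 37.0% and 30.2%. They were 54 of the 100 FLAG peaks with the largest total. Total signal ran from 3953 to 26484 with a median of 5092, maxima ran from 3.53 to 51.3 with a median of 11.7, and widths ran from 460 to 7610 bp with a median of 1700 bp.

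FLAG signal within the members hardly followed the total signal of the acetylation peak around them. Across the 1489 members, Spearman's rho between FLAG total signal and that of the overlapping peak was 0.07 for H3K27ac and 0.08 for H3K9ac, and with the FLAG maximum it was -0.07 for both marks. The 2 marks themselves had a rho of 0.65. These are descriptions across regions of the same cells, and a broad acetylation peak can hold several members, which then share its value. Each mark total is that of the whole acetylation peak, so acetylation at the FLAG site itself was not measured.

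Whether a doubly marked acetylation peak held a member at all did move with the total signal of that peak. Members lay in 1387 H3K27ac peaks and 1398 H3K9ac peaks, and 94.0% and 93.9% of members lay wholly inside them. Of the doubly marked H3K27ac peaks, 26.1% held a member: 32.3% (30.0 to 34.7%) in the highest and 19.4% (16.4 to 22.7%) in the lowest of 5 equal groups of the list by total signal. For H3K9ac the share was 24.8% over all doubly marked peaks, 35.3% (32.9 to 37.8%) in the highest group and 10.9% in the lowest. Peak width moves with these groups, with a median of 19045 bp in the highest and 4300 bp in the lowest H3K27ac group, and a wide peak has more room for a FLAG peak; its part in the trend was not tested.

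**Figure D2:**
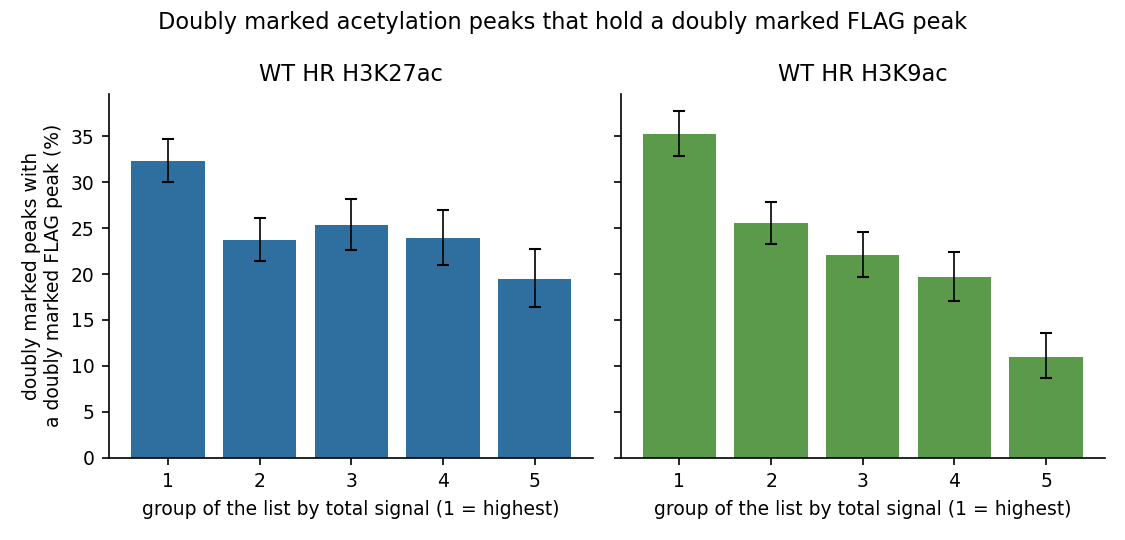
Share of doubly marked WT HR peaks that hold a member (vertical axis, %), for 5 equal groups of the H3K27ac list (left) and the H3K9ac list (right) by total signal, group 1 being the highest; bars are shares and error bars are exact 95% binomial intervals. The share is 32.3% in the highest and 19.4% in the lowest H3K27ac group, and 35.3% and 10.9% in those of H3K9ac.

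A region of chromosome 19 held the most members. Its H3K27ac peak (chr19:5792441-5855100) ranked 5 in WT HR and its H3K9ac peak ranked 1, and 5 members lay in them. One of the 5, at chr19:5832221-5836800, overlaps Neat1, the noncoding RNA around which nuclear paraspeckles form, and ranked 21 among all FLAG peaks. Another of the 5 had the lowest total signal of all members, at rank 3658. FLAG signal therefore ranged from high to low within a single acetylated domain. Shb, which encodes an adaptor of tyrosine kinase receptors, held 4 members at FLAG ranks 151, 848, 1866 and 3468, under the H3K27ac peak of rank 8 and the H3K9ac peak of rank 2. Alas1 (first enzyme of haem synthesis), Cat (catalase), Gpam (first step of triglyceride synthesis), Kdm4a, Klf13, Scp2 and Slc7a2 held 3 members each.

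The members with the largest FLAG signal included genes of hepatocyte metabolism, stress and transcription control. Slc25a47, a mitochondrial carrier made mainly in liver, had the largest FLAG total signal of all FLAG peaks (chr12:108849591-108857200, total 26484, maximum 22.0). The maximum lay inside the gene, at -828 bp from the nearest known start, which is itself inside the gene. The acetylation over this FLAG peak was of middling rank, at 2788 for H3K27ac and 2905 for H3K9ac in WT HR. Klf15, a glucocorticoid-induced regulator of gluconeogenesis and amino acid breakdown, ranked 6 (chr6:90461241-90467590, total 17664), with a low maximum of 9.50 spread over 6350 bp. Ftl1, the ferritin light chain that stores iron, ranked 15 with a total of 14897. Its peak, chr7:45456021-45461450, also reached Gys1 and came within 1 kb of Bax.

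Zfp36, whose protein speeds the decay of inflammatory mRNAs, ranked 19 with its maximum at -3078 bp from the start. Cpt1a, which carries fatty acids into mitochondria for oxidation, ranked 25 with its maximum 3405 bp downstream of the start, in the gene. Bcl6, a transcriptional repressor, ranked 26 by total and had the highest maximum of any member at a named gene, 45.3. Irs2, the insulin receptor substrate of liver, ranked 28. At rank 30 a peak with its maximum at -73 bp from a start of Mbd6 had a total of 12502. It also reached Ddit3, the gene of the stress factor CHOP, whose coordinates overlap those of Mbd6. Nfil3, Cdc34, Pcbp1 and Wee1 ranked 31, 33, 36 and 37, and a peak with its maximum at -5220 bp from the start of Klf9 ranked 32.

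N4bp2 ranked 16, LOC108167694 ranked 11, Susd1 ranked 20 and Sfi1, a centrosome gene, ranked 23. A peak overlapping Mir22hg, the host transcript of miR-22, ranked 22 with a total of 12762. Ranked by maximum instead of total, the first members were a peak with no coding gene on chromosome 9 (chr9:120010731-120012990, maximum 51.3), Bcl6, a peak with no coding gene on chromosome 10 (44.2), Usp1 (43.4) and Vgll4 (41.5). Efhd2 and Alas1 had 38.5 each and Cnot1 had 37.2. The order by maximum thus shared Bcl6 alone with the first 20 by total. A last pair of unnamed peaks, on chromosomes 2 and 4, had maxima of 36.6 and 36.1.

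**Figure D3:**
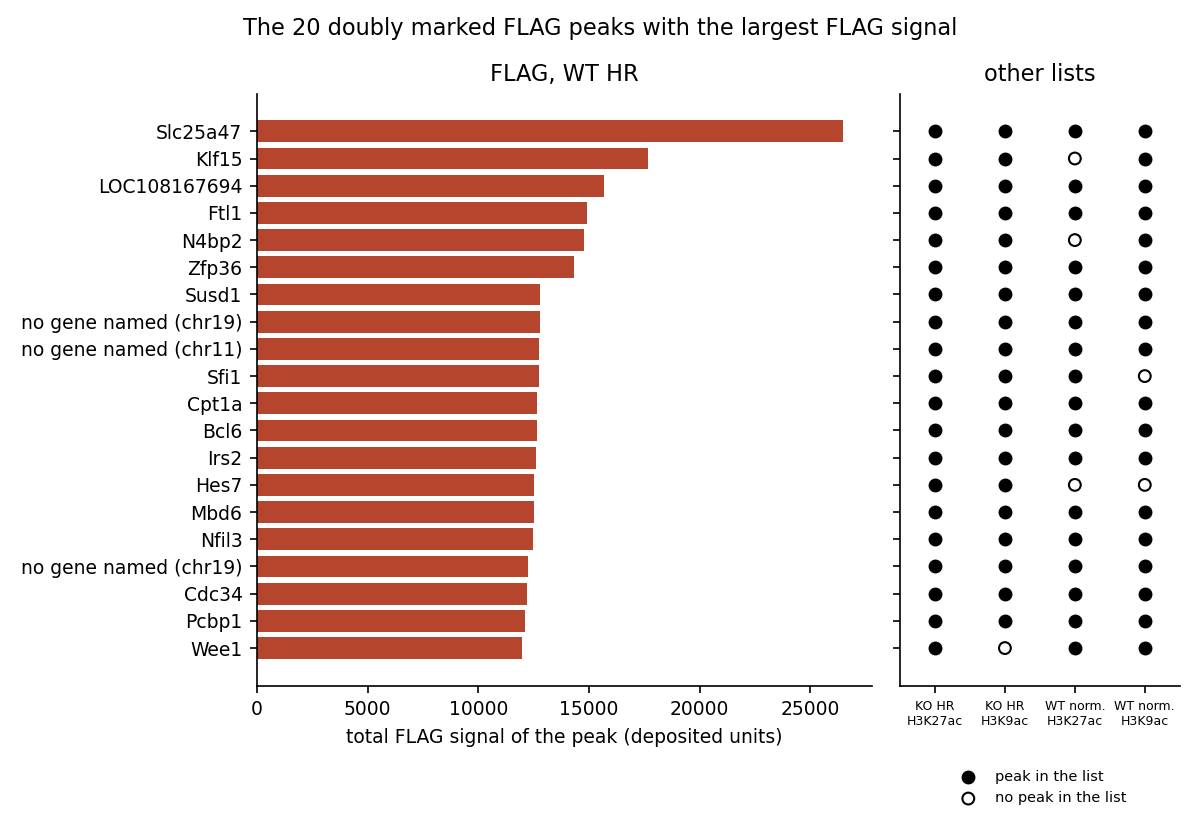
Total FLAG signal in deposited units (bars, horizontal axis) of the 20 members with the largest signal in WT HR, by gene, with filled circles where a list of another condition holds a peak there and open circles where it does not. Slc25a47 stands at 26484 and Wee1 at 11970; open circles stand at Klf15, N4bp2, Sfi1, Hes7 and Wee1.

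Some of the members stood at genes of RNA polymerase III, which makes transfer RNA. The peak of rank 29, chr11:69122191-69126230, lies across Hes7 and Aloxe3 and holds 4 tRNA genes, n-TRtct4, n-TLtag3, n-TQctg6 and n-TKctt27, with its maximum 3738 bp from the Hes7 start. In all, 14 members (0.940%, 0.515 to 1.57%) overlapped 25 of the 430 tRNA genes. The share was 1.21% (0.732 to 1.89%) for FLAG peaks with neither mark and 0.129% (0.0418 to 0.300%) for windows of 1700 bp, the members' median width, at the H3K27ac maxima of doubly marked peaks without FLAG. FLAG rank among the 14 ran from 29 to 2774. This count was made after the peak at rank 29 had been seen. MicroRNA hairpins lay in 12 members (0.806%, 0.417 to 1.40%), let-7i among them at FLAG rank 2276. The share was 0.491% for FLAG peaks with 1 mark and 0.319% for those with neither. For the 1700 bp windows without FLAG it was 0.515% (0.315 to 0.794%), an interval that overlaps that of the members.

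Counted over genes, 1590 of 21887 coding genes (7.26%) had a member on the gene or within 1 kb of it, and so did 1588 of the 5978 coding genes (26.6%) that carried both marks. Lists of genes are read against these shares, and no list was tested. Among hepatocyte markers, 8 of 18 had a member (14 carried both marks): Apoa1, Nr1h4, Trf, Alb, Hnf4a, Cebpa, Foxa3 and Ttr. Albumin (Alb) had a maximum of 31.5 at -89 bp from its start and ranked 908. Nr1h4, the bile acid receptor FXR, ranked 320, and Apoa1, the main protein of HDL, ranked 267.

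Genes of acetyl-CoA supply had a member in 5 of 15 cases, with 14 of the 15 doubly marked. Slc25a1, the carrier that exports citrate from mitochondria, ranked 338 with a total of 7366 and its maximum at -172 bp. Mpc1 and Mpc2, the subunits of the mitochondrial pyruvate carrier, ranked 497 and 1075, with maxima at -31 and -194 bp. Cs, citrate synthase, ranked 1125. Acly itself (chr11:100476352-100528000) held 1 FLAG peak, at chr11:100515871-100517060 and of rank 836, that carried H3K27ac alone and was not a member. The 5 members of this list had a peak in each of the 4 acetylation lists of the other conditions.

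Genes that use acetyl-CoA for lipids had members in 6 of 19 cases (14 doubly marked) for fatty acid and triglyceride synthesis. Fasn, fatty acid synthase, ranked 77 with a total of 10139 and its maximum at -64 bp, although the H3K27ac peak there ranked only 6216 in WT HR. Gpam ranked 207, Dgat2, which adds the last fatty acid of a triglyceride, ranked 526, and Acaca, acetyl-CoA carboxylase, ranked 1648. Cholesterol genes had members in 5 of 22 cases (15 doubly marked), among them Idi1 at rank 1145 and Srebf2, a regulator of cholesterol synthesis, at rank 2196. Fatty acid oxidation had 5 of 18 (12 doubly marked), with Acadl, the long-chain acyl-CoA dehydrogenase, second to Cpt1a at rank 767. Hadha and Hadhb of this list shared a single member, at rank 1948. Glycolysis and gluconeogenesis had 4 of 18 (11 doubly marked), led by Ldha, lactate dehydrogenase A, at rank 86 with a maximum of 35.5 at -28 bp.

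None of 21 complement and coagulation genes had a member, and 8 of them carried both marks. Of 21 acute phase genes, 9 carried both marks and 2 had a member, Mt1 at rank 1460 and Hpx at rank 1711. Bile acid and cytochrome P450 genes had 1 of 16 (7 doubly marked), Por, the electron donor of microsomal P450 enzymes, at rank 690. Among stress genes, endoplasmic reticulum stress had 6 of 18 (15 doubly marked), led by Ddit3 and by Dnajc3 at rank 205. The Ddit3 member was the peak of rank 30, with its maximum at -73 bp from a start of Mbd6. Immediate early genes had 5 of 22 (16 doubly marked), led by Zfp36 and by Fos at rank 240. Cell death had 5 of 17 (10 doubly marked), with Bax sharing the Ftl1 peak and Mdm2 at rank 451. NRF2 targets had 4 of 17 (16 doubly marked) and heat shock genes 2 of 15 (12 doubly marked). Hypoxia targets had 4 of 18 (12 doubly marked), with Mxi1 at rank 507. NF-kB targets had 3 of 17 (10 doubly marked), with Tnfaip3 at rank 160. Ribosomal proteins had 5 of 20 (20 doubly marked) and histone acetylation enzymes 4 of 20 (13 doubly marked). Respiratory chain had 3 of 18 (12 doubly marked) and DNA repair 3 of 20 (10 doubly marked). The member near Cd68, the 1 of 8 macrophage markers with one, had its maximum 18 bp from the start of Mpdu1.

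Most members also carried acetylation in KO cells after HR. A KO HR H3K27ac peak overlapped 1465 members (98.4%, 97.6 to 99.0%) and a KO HR H3K9ac peak overlapped 1354 (90.9%, 89.4 to 92.3%). Over doubly marked H3K27ac peaks of WT HR without FLAG, 99.3% and 93.0% overlapped these KO lists, and over the 1700 bp windows at their maxima 98.9% and 88.9% did. The members' H3K27ac share was thus close to both shares without FLAG, and their H3K9ac share lay between the 2. Neither is a matched baseline. The whole peaks were wider, at a median of 7890 bp against 1700 bp for members. A window need not itself overlap WT HR H3K9ac, as each member must. FLAG peaks with H3K27ac alone were held in 91.4% and 29.5%, those with H3K9ac alone in 58.0% and 73.2%, and those with neither mark in 14.8% and 4.85%.

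In WT normoxia the members were also mostly acetylated. A WT normoxia H3K27ac peak overlapped 1149 members (77.2%, 74.9 to 79.3%) and a WT normoxia H3K9ac peak overlapped 1388 (93.2%, 91.8 to 94.4%). The windows without FLAG were held in 72.0% and 86.9%, and whole doubly marked peaks without FLAG in 72.7% and 89.7%. For both marks the members' interval lay above that of the windows. Each member overlapped WT HR H3K9ac by the rule, whereas a window at an H3K27ac maximum need not. The H3K9ac comparison with the windows therefore favours the members. The H3K27ac peaks that held a member were also wider, at a median of 8980 bp against 7890 bp for doubly marked peaks without FLAG. The part of width in these differences was not tested. FLAG peaks with H3K27ac alone were held in 72.0% and 29.9%, those with H3K9ac alone in 3.21% and 54.8%, and those with neither mark in 2.49% and 1.79%. The order of the lists depends on their length. With the 3 lists of a mark reduced to the length of the shortest by total signal, 1230 FLAG peaks were doubly marked, and the KO HR and WT normoxia lists held 86.6% and 88.7% of them for H3K27ac and 87.4% and 96.1% for H3K9ac.

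**Figure D4:**
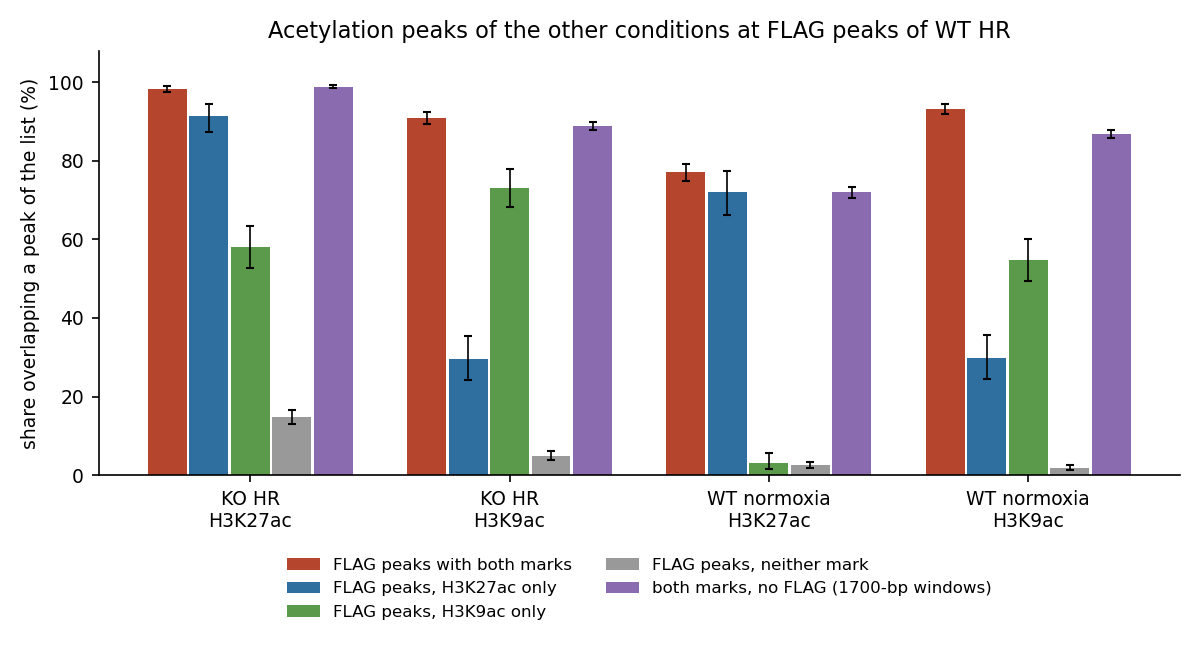
Share of regions (vertical axis, %) that overlap a peak of the KO HR or WT normoxia H3K27ac or H3K9ac list (horizontal axis), for FLAG peaks with both marks, with 1 mark or with neither, and for 1700 bp windows at the maxima of doubly marked peaks without FLAG; error bars are exact 95% binomial intervals. Members reach 98.4%, 90.9%, 77.2% and 93.2%, next to 98.9%, 88.9%, 72.0% and 86.9% for the windows without FLAG.

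Taken by member, 1017 (68.3%) had a peak in each of the 4 other lists. Both KO lists held 1345 members and neither held 15, and both normoxia lists held 1105 and neither held 57. Of the 57 without a normoxia mark, 49 had both marks in KO HR, where both lists held 90.3% of all members. No KO normoxia list was among those used. Of the 15 without a KO mark, 11 had both marks in WT normoxia, where both lists held 74.2% of all members. Neither count was tested against the share over all members. The commonest gap was H3K27ac in normoxia: 283 members (19.0%) had the normoxia H3K9ac peak without the H3K27ac peak, against 44 with the reverse.

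Shares differed by place in the genome most for 2 of the 4 lists. Place was taken from the known starts, so the groups farther away can include maxima at starts that were not known. Members with a maximum within 1 kb of a start were held in 71.0% by the WT normoxia H3K27ac list, against 88.0% of those farther away. For the KO HR H3K9ac list it was the other way round, with 96.1% at starts and 82.1% elsewhere. The other lists differed less by place, with 98.9% at starts and 97.6% elsewhere for KO HR H3K27ac and 94.2% and 91.5% for WT normoxia H3K9ac. Windows without FLAG had the same order, with 60.3% at starts and 84.4% elsewhere for normoxia H3K27ac, and 96.7% and 80.5% for KO HR H3K9ac. Members without the normoxia H3K27ac peak lay under WT HR H3K27ac peaks of lower total signal. Their median rank was 5915, against 1638 for members that had it. Whether those regions lay just under the threshold of the normoxia list was not tested.

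Single members show both kinds of gap. Klf15 had no WT normoxia H3K27ac peak but had H3K9ac there (rank 4630), and it had both marks in KO HR (ranks 5241 and 6129). N4bp2 (FLAG rank 16), Hes7 (29), Crebrf (46), Hnrnpr (70) and Zc3h18 (128) were the next members without H3K27ac in normoxia. Crebrf, a regulator of the CREB3 stress response, and the tRNA-bearing peak at Hes7 lacked both normoxia marks and had both KO marks. Pdk2, the kinase that switches off pyruvate dehydrogenase, also lacked both normoxia marks (FLAG rank 317), as did Jpt2 at rank 310 and Acadl at rank 767. Sfi1, Mnt and Sfxn5 had H3K27ac in normoxia but no H3K9ac there, at FLAG ranks 23, 163 and 179. The unnamed member at chr17:64761741-64763580, of FLAG rank 247, was the next without normoxia H3K9ac.

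Among members without a KO mark, Wee1, a kinase that holds cells before mitosis, was the first without KO HR H3K9ac (FLAG rank 37, chr7:110120541-110123330). It had KO HR H3K27ac (rank 3612) and both normoxia marks. Slc25a25, Lasp1, Mnt, Cnot1 and Sfxn5 followed at FLAG ranks 67, 134, 163, 176 and 179. Nfic (FLAG rank 237), Chd3 (347), Cic (352), Ap4m1 (370), an unnamed peak on chromosome 15 (618) and Ubp1 (703) were the first without KO HR H3K27ac, and of these Chd3 alone had KO HR H3K9ac. Khk, fructokinase, and Sphk2 were also among the 15 without any KO mark, at FLAG ranks 2977 and 2794. A peak in Ppp4r4 (chr12:103609701-103611290) was the 1 member with no peak in any of the 4 other lists.

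**Figure D5:**
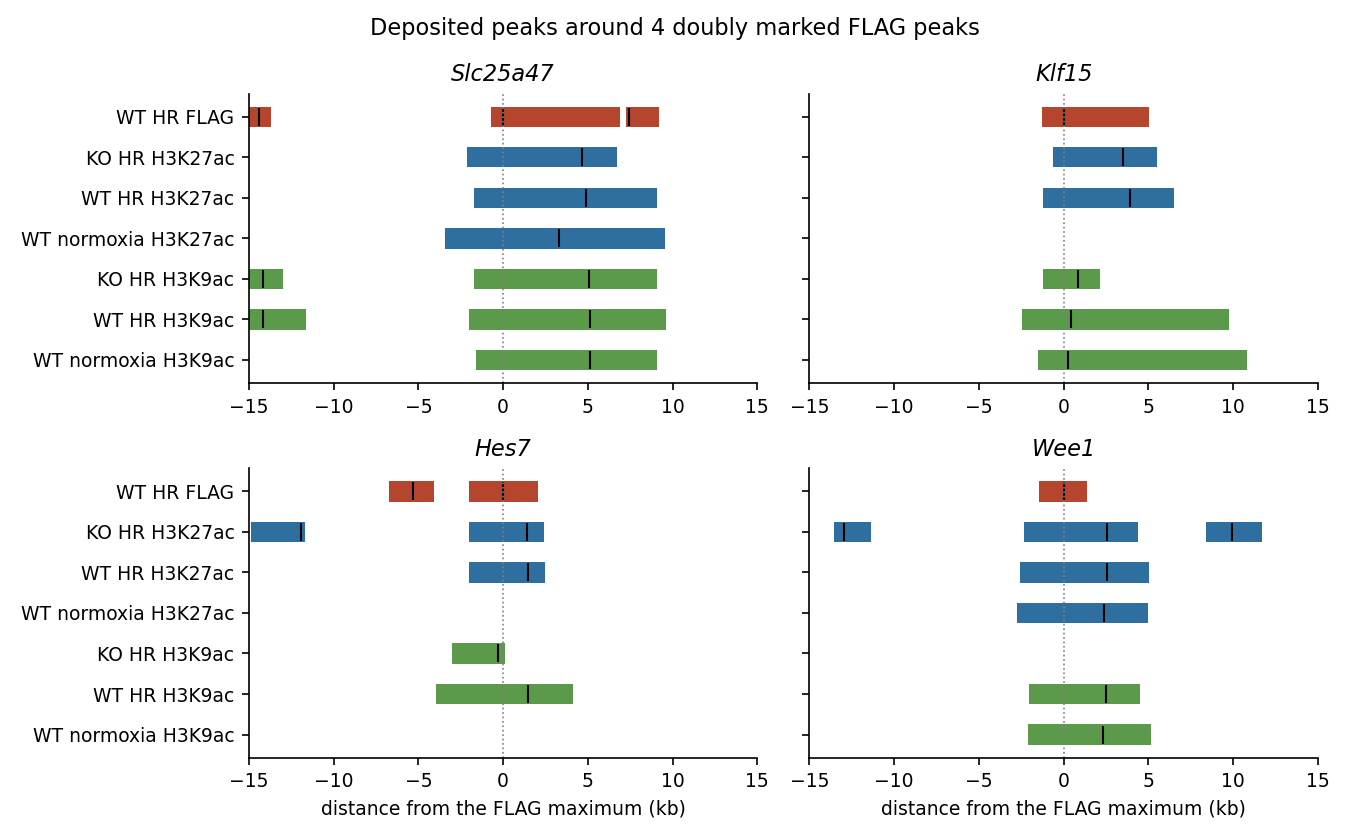
Deposited peaks within 15 kb of the FLAG maximum (horizontal axis, kb, in order of chromosome position) at Slc25a47, Klf15, Hes7 and Wee1, 1 row per list; bars span peaks and black ticks mark signal maxima. No WT normoxia H3K27ac peak is drawn at Klf15, no normoxia peak of either mark at Hes7 and no KO HR H3K9ac peak at Wee1.

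At the edge of the overlap rule, the members with the shortest overlap were at Mief2 (70 bp shared with H3K27ac), Pim1 (280 bp), Grhpr (360 bp) and Gse1 (380 bp), and an unnamed member of 460 bp was covered in full. The FLAG peaks with a single mark nearest to the missing one were at Sgsm2 (10 bp from an H3K27ac peak), an unnamed place on chromosome 8 (10 bp from an H3K9ac peak), Fer1l5 (20 bp), Por (70 bp) and Slc29a1 (130 bp), the last 3 without H3K9ac.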

How the data were processed

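CUT&RUN libraries for FLAG (ACLY), H3K27ac and H3K9ac came from primary mouse hepatocytes, with 1 library per antibody and condition, and 8 peak lists were used. Each deposited peak has the authors' total signal, maximum signal and region of that maximum. The scale of the signal is not stated. Per the submitters' processing notes the build was mm10 and the tools were Trimmomatic and kallisto; for CUT&RUN, the aligner and caller are not given in the sources used here. Peaks were ranked by signal within their own list alone. Read depth per library is unknown, since the lists hold no counts.

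Overlap meant at least 1 shared base, computed with pandas 2.3.3 and numpy 2.4.6 and checked against bedtools 2.31.1. Shares carry exact 95% binomial intervals (scipy 1.17.1). A member took the name of the coding gene whose start lay nearest to its region of maximum signal, within 5 kb, and otherwise of a coding gene whose body it overlapped. Gene lists were counted by members on the gene or within 1 kb of it. RefSeq coordinates (GRCm38.p6) covered 21887 coding genes, and starts were known for 17492 of them, with none on chromosome 18. A gene can have several known starts, and distances are to the nearest, which can lie inside the gene. No list of regions with anomalous signal was applied.

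The genes named were the first 20 members by total and the first 10 by maximum FLAG signal, the first 6 without a peak in each other list, and list genes by rank. The members and the gene lists were chosen with earlier results of these data known. The liver RNA libraries give transcript identifiers that no table used here pairs with genes, so the planned count test of the genes with a member was not run and no RNA value was used. A few genes of the lists are not reported here.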

Additional observations from a re-analysis of the deposited data

How the results depend on the processing

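The number of doubly marked FLAG peaks was close to 1489 when each mark had to cover 50% of the FLAG peak (1474) or touch its region of maximum signal (1478), and was 887 with the 50% of each mark list with the largest signal and 873 among the 50% of FLAG peaks with the largest signal. Shares of members held by the other lists lay outside the interval of the main value in most settings. With 50% coverage they were 96.9% (KO HR H3K27ac) and 83.7% (KO HR H3K9ac). With the 50% of each list with the largest signal they were 85.5%, 71.1%, 52.5% (WT normoxia H3K27ac) and 66.1% (WT normoxia H3K9ac). With lists of equal length they were 86.6%, 87.4%, 88.7% and 96.1%, and with the 50% of members with the largest FLAG signal 99.1% (KO HR H3K27ac) and 92.8% (KO HR H3K9ac). A gene start lay inside 63.4% of FLAG peaks with both marks and within 5 kb of 74.1%, and within 1 kb of the region of maximum signal in 63.2%, a setting added after seeing the data. The median rank was 1639 by maximum and 1600 by total divided by width. Coding genes with a member numbered 1519 for the gene body alone and 1814 within 5 kb, both added after seeing the data. No paired analysis was possible because each peak list is from 1 library, and the replicate numbers that groups share belong to the RNA libraries, whose test was not run. No replicate could be left out, and depth is unknown.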
